A study of Mus musculus with 12 samples.

Results

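The respiratory chain and ATP synthase are built from many small proteins, and 84 of the 15002 genes in the expression tables encode a nuclear-encoded subunit of them. The genes were taken by symbol: those that start with Nduf and a subunit letter and number (complex I, 39 genes), Sdha to Sdhd (complex II, 4 genes), the Uqcr genes with Cyc1 (complex III, 9 genes), Cycs (cytochrome c, 1 gene), Cox4 to Cox8 (complex IV, 14 genes) and Atp5 (complex V, the ATP synthase, 17 genes). They lie on 19 chromosomes. The rule uses symbols and no measured value.

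The chain works as a relay in the inner mitochondrial membrane. Complexes I and II pass electrons from metabolism to ubiquinone, complex III passes them on to cytochrome c, and complex IV hands them to oxygen. Complexes I, III and IV pump protons, and complex V lets the protons flow back to make ATP. Intestinal epithelial cells draw on this pathway for absorption and renewal. A few core subunits are encoded in the mitochondrial genome, and these were not analysed here.

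RNA sequencing was done in IEC4.1 cells, a wild-type line of mouse intestinal epithelium, in 4 groups of 3 libraries described as biological triplicates. The siR_Ctrl group received a scrambled siRNA, and the siR_Nostrill group a pool of 3 siRNAs (40 nM of each) against the long noncoding RNA Nostrill. The transfection ran for 24 h, and the siR_Ctrl + IFN-γ and siR_Nostrill + IFN-γ groups were then given IFN-γ at 1 ng/ml for 4 h, whereas the labels carry 24 h for all 12 libraries. All groups are the same line and all were transfected, so no untransfected cells stand beside them. Libraries held 17824306 to 19093204 counts. Irf1, a transcription factor induced by IFN-γ, was at 47.0 to 59.8 FPKM (fragments per kilobase, scaled to depth) in the 6 libraries without IFN-γ and at 535 to 594 FPKM in the 6 with it. Nostrill itself was not analysed here.

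The epithelial markers looked up were low. Krt7, Krt8, Krt18, Vil1 and Cdx2 had mean levels of 0.070, 0.17, 0.041, 0.034 and 0.0020 FPKM and Krt19 1.75 FPKM, and Epcam, Cdh1, Cldn3 and Cldn7 were not analysed here. The fibroblast markers Col1a1, Col1a2, Col3a1, Dcn and Pdgfra were at 229, 163, 63.5, 17.1 and 14.0 FPKM, while Ptprc (leukocyte) was at 0.0020 FPKM, Pecam1 and Cdh5 (endothelial) at 0.055 and 0.014 FPKM and Myh11 (muscle) at 0.055 FPKM. Cd68 (leukocyte) and Des (muscle) were higher, at 1.55 and 1.002 FPKM, near the level of Krt19. The cells are called by the name of the line below. In bulk RNA, fewer cells of a type and less RNA per cell cannot be told apart.

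Many genes of this pathway share promoter motifs bound by NRF1, by ETS factors such as GABPA, and by YY1. RefSeq promoters (GRCm38.p6, from 250 bases before to 50 after the start site) were matched for 67 of the 84 genes and searched on both strands for the NRF1 motif (GCGC, any 2 bases, GCGC), the ETS motif CCGGAAG and the YY1 motif AAGATGGCG. The NRF1 motif was present in 18 of the 67 genes (26.9%), against 7.0% of all genes with promoters of this length and 15.5% of tested genes. The ETS motif was present in 17 genes (25.4%, against 9.93% and 20.8%) and the YY1 motif in 7 (10.45%, against 1.64% and 3.7%). Of the 67 genes, 36 had at least 1 of these motifs (53.7%, against 16.6% and 35.1%), and no matches of different motifs overlapped. A match describes the letters only. The promoters below are those of 3 of the 6 genes with matches of more than 1 kind, as examples of the shared motifs, together with that of Uqcr11, which was added after its values were seen because its ratio to a subunit of like length, given further on, does not overlap between the siRNA groups. Capitals mark the motifs, and each sequence runs 5′ to 3′ on the gene's strand, here the minus strand for all 4.
Cox6a1, chr5:115348909-115349208, NRF1 starting 162 and 117 bases and ETS 16 bases before the start site, the last on the opposite strand: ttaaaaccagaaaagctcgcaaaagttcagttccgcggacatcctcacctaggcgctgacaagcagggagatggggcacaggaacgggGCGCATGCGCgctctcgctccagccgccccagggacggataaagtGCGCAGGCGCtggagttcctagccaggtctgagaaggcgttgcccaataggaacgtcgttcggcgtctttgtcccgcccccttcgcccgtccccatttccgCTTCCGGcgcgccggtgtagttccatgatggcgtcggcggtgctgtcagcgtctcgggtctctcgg
Atp5h, chr11:115419870-115420169, NRF1 at 141 and ETS at 38 bases before the start site, the latter on the opposite strand: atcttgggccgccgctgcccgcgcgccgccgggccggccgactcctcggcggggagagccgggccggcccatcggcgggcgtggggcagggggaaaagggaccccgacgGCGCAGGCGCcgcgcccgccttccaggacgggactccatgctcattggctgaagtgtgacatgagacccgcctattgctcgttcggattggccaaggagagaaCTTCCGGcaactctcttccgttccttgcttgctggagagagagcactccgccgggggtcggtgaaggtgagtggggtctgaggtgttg
Atp5j, chr16:84834927-84835226, YY1 at 88 and ETS at 61 bases before the start site: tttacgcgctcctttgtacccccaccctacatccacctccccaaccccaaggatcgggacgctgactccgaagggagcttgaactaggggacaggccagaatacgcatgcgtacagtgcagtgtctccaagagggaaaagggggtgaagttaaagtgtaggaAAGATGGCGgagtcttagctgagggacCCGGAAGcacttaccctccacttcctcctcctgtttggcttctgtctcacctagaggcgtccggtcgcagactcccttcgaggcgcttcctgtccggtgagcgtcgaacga
Uqcr11, chr10:80406772-80407071, ETS at 66 bases before the start site: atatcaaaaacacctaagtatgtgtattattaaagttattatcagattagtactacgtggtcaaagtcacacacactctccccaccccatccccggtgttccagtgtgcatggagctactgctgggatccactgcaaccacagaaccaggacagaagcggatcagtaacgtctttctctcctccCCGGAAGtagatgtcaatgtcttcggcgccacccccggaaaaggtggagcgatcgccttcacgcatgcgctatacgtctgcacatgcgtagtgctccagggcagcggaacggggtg

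The subunit genes were strongly expressed. Of the 84 genes, 80 passed the filter on low counts, which left 11900 genes in the test, and all 80 were above the median of the tested genes (11.8 FPKM). The median level was 243 FPKM over the 80, and by complex it was 167 FPKM for complex I (37 genes), 127 for complex II (4), 287 for complex III (9), 565 for complex IV (12) and 496 for complex V (17), with Cycs at 69.6 FPKM. The highest mean levels among complexes IV and V were those of Cox6c (1182 FPKM), Atp5b, the catalytic β subunit (1171 FPKM), Cox8a (1098 FPKM) and Atp5g3, which encodes the c subunit of the rotor ring (905 FPKM).

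**Figure D1:**
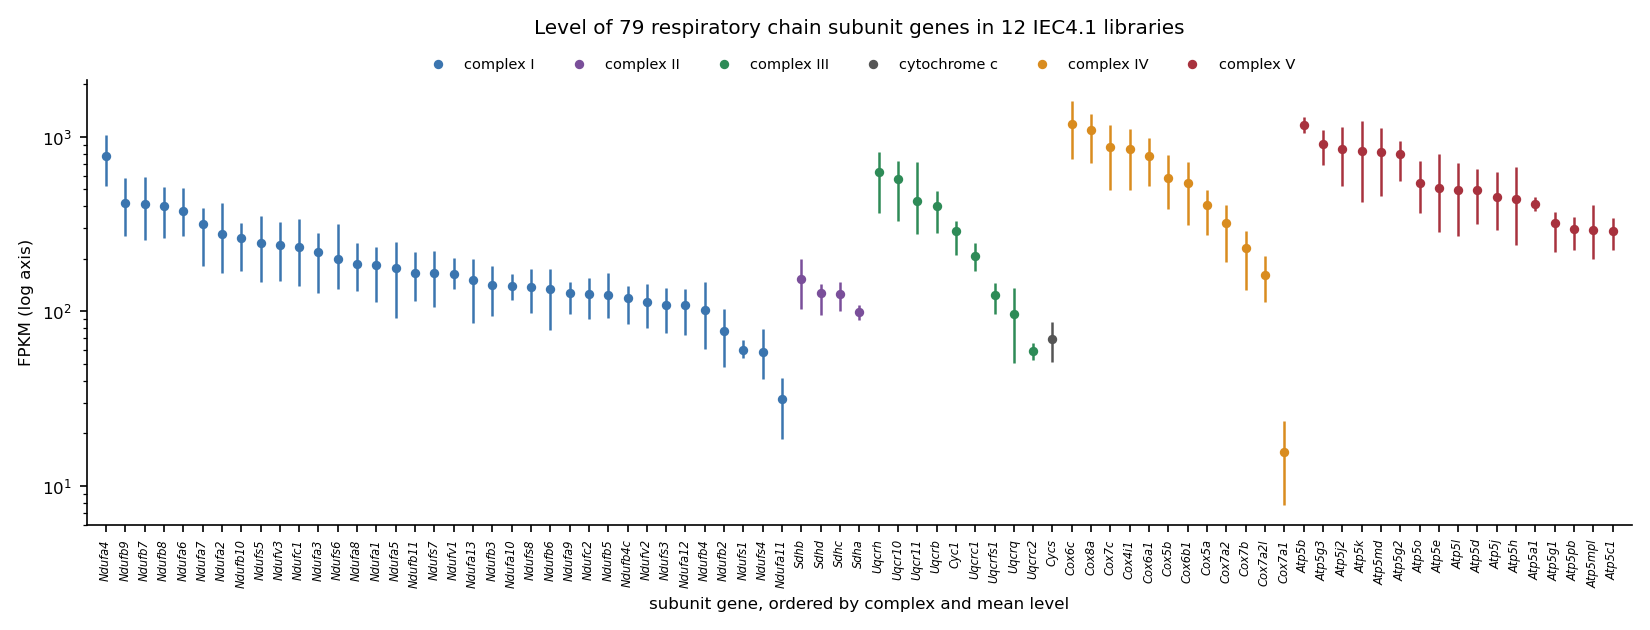
Level of 79 of the 80 tested subunit genes in FPKM (log axis), ordered by complex and by mean. Points are means over the 12 libraries and lines run from the lowest to the highest library. Levels span from 15.6 FPKM (Cox7a1) to 1182 FPKM (Cox6c), and the medians of complexes IV and V (565 and 496 FPKM) lie above those of complexes I and II (167 and 127 FPKM).

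Within each complex the levels differed by subunit, as the plot of levels by complex shows. Ndufa4, placed in complex I here by its symbol alone although its protein is found with complex IV, was at 774 FPKM (524 to 1024 over the libraries). Next in complex I was the accessory subunit Ndufb9 at 416 FPKM (271 to 581). The iron-sulfur core subunit Ndufs1 was at 59.8 FPKM (53.8 to 68.7) and Ndufa11 at 31.3 FPKM. In complex II the subunits were close to each other. Sdhb, the iron-sulfur subunit, had 153 FPKM, the membrane anchors Sdhd and Sdhc 128 and 126 FPKM, and Sdha, the flavoprotein, 99.1 FPKM, and the library ranges of all 4 overlapped. In complex III, the small subunits Uqcrh (629.5 FPKM, 366 to 820) and Uqcr10 (570.6 FPKM, 330 to 726) were the most abundant, and the core protein Uqcrc2 was at 59.2 FPKM (52.4 to 66.3), below both ranges. The proteins that these transcripts encode were not measured.

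For Cox4, Cox6a and Ndufa4, which have tissue isoforms, the ubiquitous form made up nearly all of the signal. The 4 genes below the filter were all minor forms or copies. Cox4i2, the counterpart of Cox4i1, never exceeded 1 count in a library. Cox6a2, the muscle form of Cox6a1, never exceeded 6 counts, and Ndufa4l2, related to Ndufa4, never exceeded 3. Ndufb4b, a copy of Ndufb4, never exceeded 8.21 estimated counts. As a share of the pair's FPKM, Cox4i2 reached at most 0.024%, Cox6a2 at most 0.11% and Ndufa4l2 at most 0.031%. Cox7a1, the muscle form, was detected at 7.82 to 23.5 FPKM and made up 2.41% to 6.51% of its sum with Cox7a2, whereas Cox7a2l, a related protein that takes part in joining complexes III and IV, made up 31.5% to 37.05% of its sum with Cox7a2. Ndufb4 and its copy Ndufb4c were at 102 and 119 FPKM, and their counts were fractional in every library, as were those of Cox7a2, so the counting shared out reads of these genes and their values are uncertain. Counts were whole in all 12 libraries for 79 of the 84 genes.

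The c subunit of ATP synthase is encoded by Atp5g1, Atp5g2 and Atp5g3, whose mature proteins are the same. In siR_Ctrl libraries Atp5g3 made up 46.2% ± 0.99 (SD, n = 3) of their summed FPKM, Atp5g2 37.95% ± 0.72 and Atp5g1 15.8% ± 0.77. These shares were 46.7% ± 1.14, 37.7% ± 1.72 and 15.65% ± 0.59 in siR_Ctrl + IFN-γ and 45.9% ± 1.11, 38.3% ± 1.36 and 15.8% ± 0.52 in siR_Nostrill. In siR_Nostrill + IFN-γ, Atp5g3 was at 40.5% ± 0.86 and Atp5g2 at 43.4% ± 1.43, with Atp5g1 at 16.1% ± 0.67. The Atp5g2 share was 41.9% to 44.8% in those 3 libraries and 36.1% to 39.5% in the 9 others, so the ranges did not overlap. This ratio was singled out after its values were seen and has no test, and the genes differ in effective length (416 nt for Atp5g2, 483 nt for Atp5g3, 565 nt for Atp5g1).

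The subunit genes are short. Their median effective length, the transcript length open to a read as worked back from counts and FPKM, was 477 nt, from 94 nt (Atp5k, subunit e of ATP synthase) to 2918 nt (Cycs), against 2689 nt over all tested genes. The shortest after Atp5k were Ndufa3 (122 nt) and Atp5md (132 nt), and the longest after Cycs were Sdha (2623 nt) and Ndufs1 (2494 nt). Of the 80 tested subunits, 60 were under 1000 nt, whereas 9.89% of the tested genes were. Other short genes are therefore set beside them in what follows.

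The subunit genes moved together from library to library, also within a group. Each gene's log2 CPM (counts scaled to depth, log2) was set against its own mean over the 12 libraries, and the median of these differences over the 80 genes was taken. In the siR_Ctrl libraries 1, 2 and 3 it was -0.67, 0.19 and -0.05. In siR_Ctrl + IFN-γ it was -0.03, 0.48 and -0.31. In siR_Nostrill it was 0.36, 0.36 and -0.07, and in siR_Nostrill + IFN-γ -0.19, -0.12 and 0.07. The range within the siR_Ctrl group covered the values of all other libraries except siR_Ctrl + IFN-γ library 2 and siR_Nostrill libraries 1 and 2. In siR_Ctrl library 1 only 2 of the 80 genes were above their own mean, while in siR_Ctrl library 2 all 80 were.

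**Figure D2:**
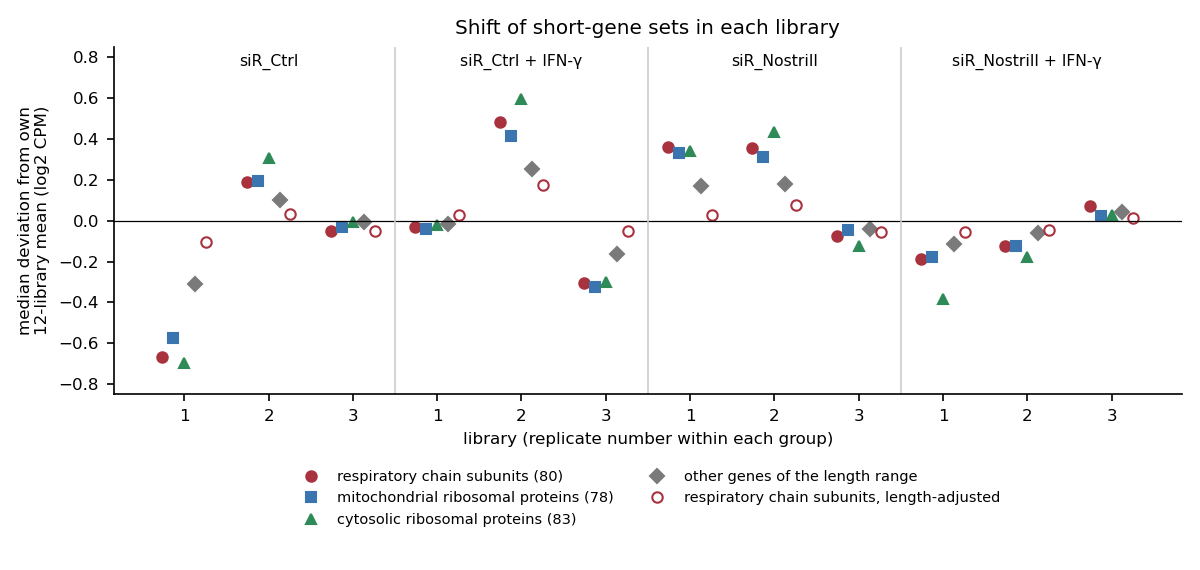
Median difference of log2 CPM from each gene's own 12-library mean, by library, for the 80 subunit genes and for other sets of genes, with the subunit genes also after the length trend was removed. Before the trend was removed the plotted sets lie on the same side of 0 in each library, from -0.67 to 0.48 for the subunits, while the trend-removed subunits stay between -0.10 and 0.17. The trend-removed values keep each library's TMM factor. The proteasome genes are not plotted.

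Other short genes mostly shifted the same way, as the plot of shifts by library shows. In siR_Ctrl library 1 the median difference was -0.57 for mitochondrial ribosomal proteins and -0.70 for cytosolic ribosomal proteins. It was -0.45 for genes listed as constitutive proteasome and -0.31 for the 4390 other genes between 164 and 2207 nt (median 1432 nt). In siR_Ctrl + IFN-γ library 2 these were 0.41, 0.59, 0.37 and 0.25. In 3 libraries with small shifts the proteasome median lay on the other side of 0 from the subunit median: 0.011 against -0.049 in siR_Ctrl library 3, 0.033 against -0.030 in siR_Ctrl + IFN-γ library 1 and -0.0025 against 0.071 in siR_Nostrill + IFN-γ library 3. Across all tested genes within a library, the difference from the mean had Spearman correlations with length between -0.67 and 0.76, a description in which genes share the library and are not independent. After a smooth trend of each library on length was removed, the subunit medians lay between -0.10 and 0.17. The trend was fitted to log2 CPM without TMM scaling (a factor for each library) and subtracted from log2 CPM with it. Trend-removed values by library, here and below, therefore keep that factor, which shifts all genes of a library alike. The factor was lowest (0.904) in siR_Ctrl + IFN-γ library 2, which had the 0.17. It was highest (1.051) in siR_Ctrl library 1, which had the -0.10. With the trend removed, the median SD within groups was 0.11 in place of 0.35 for the subunits. It was 0.13 in place of 0.21 for the other genes of that length range and 0.13 in place of 0.19 for all tested genes. Atp5k, the shortest subunit gene, had the largest SD within groups among the subunits (0.53, and 0.105 with the trend removed). The long gene Sdha had the smallest with no trend removed (0.032, and 0.068 with it removed). All these trend-removed SDs include the spread of the TMM factors, so the rise for Sdha is not read as an effect of length. What makes the libraries differ by length was not tested, and removing the trend would also take out a response that follows length.

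With IFN-γ in siR_Ctrl cells, no subunit gene rose or fell by the test. Of the 80, 0 had a Benjamini-Hochberg adjusted p under 0.05 (edgeR quasi-likelihood), where 5.45% of all tested genes did, 0 had an unadjusted p under 0.05, and DESeq2 called 0 as well. The median log2 fold change was 0.21 (77 genes above 0 and 3 below, from -0.11 to 0.75), against 0.09 for the other genes of the length range and -0.01 for all genes. Here and below, those other genes are mostly longer than the subunits, with a median of 1432 nt against 477 nt. Narrower length classes are compared further on. The lowest p values belonged to Ndufb4c (log2 fold change 0.37 ± 0.19 SE, edgeR adjusted p = 0.424), Cox7a1 (0.75 ± 0.40, 0.450), Ndufs1 (-0.11 ± 0.07, 0.533), Cox7b (0.37 ± 0.23, 0.542) and Ndufv3, an accessory subunit of complex I (0.38 ± 0.25, 0.551). The median rested on single libraries, at -0.03 without siR_Ctrl + IFN-γ library 2 and 0.44 without siR_Ctrl library 2. So did the values of these genes other than Ndufs1, which without the same libraries were 0.22 and 0.60 for Ndufb4c, 0.44 and 1.22 for Cox7a1, 0.15 and 0.57 for Cox7b and 0.16 and 0.57 for Ndufv3. Without siR_Ctrl library 1 the values of Ndufb4c, Cox7b and Ndufv3 were also smaller, close to those without siR_Ctrl + IFN-γ library 2.

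With IFN-γ in siR_Nostrill cells, 0 of 80 passed the test, where 6.78% of all tested genes did, and 1 had an unadjusted p under 0.05. The median log2 fold change was -0.28 (4 genes above 0 and 76 below), against -0.16 for the other genes of the length range. The lowest p values belonged to Sdha (-0.15 ± 0.06 SE, edgeR adjusted p = 0.208), Ndufa8 (-0.54 ± 0.25, 0.231), Atp5e, the ε subunit of the ATP synthase stalk (-0.71 ± 0.34, 0.249), Cox6c (-0.55 ± 0.28, 0.267) and Ndufa2 (-0.65 ± 0.33, 0.269). Other settings made calls. DESeq2 called 1 gene lower, Sdha (-0.15, adjusted p = 0.0224), where it called 3.86% of all genes lower. Fitted on the 6 libraries compared alone, edgeR called 10 genes lower (Atp5e, Ndufa2, Ndufs6, Cox6c, Ndufa8, Ndufs5, Atp5j, Ndufa6, Ndufb9 and Ndufb8), where it called 7.1% of all genes lower.

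Without IFN-γ, siR_Nostrill against siR_Ctrl gave 0 of 80 subunit genes past the test, where 0.218% of all tested genes passed, and 4 with an unadjusted p under 0.05, whose log2 fold changes were all above 0. DESeq2 called 0. The median log2 fold change was 0.37 (77 genes above 0 and 3 below), against 0.18 for the other genes of the length range, and it was 0.14 without siR_Ctrl library 1 and 0.56 at most with another library left out. Low p values were those of Ndufb4c (0.50 ± 0.19 SE, edgeR adjusted p = 0.309), Cox7b (0.59 ± 0.23, 0.322), Atp5l, subunit g of ATP synthase (0.69 ± 0.28, 0.342) and Ndufa7 (0.54 ± 0.25, 0.359). Without siR_Ctrl library 1 the last 3 were at 0.38, 0.45 and 0.32, and Ndufb4c was at 0.37 at the lowest.

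With IFN-γ, siR_Nostrill against siR_Ctrl again gave 0 of 80 past the test, where 0.429% of all tested genes passed, and 2 with an unadjusted p under 0.05. The median log2 fold change was -0.17 (20 genes above 0 and 60 below), against -0.08 for the other genes of the length range, and it was 0.09 without siR_Ctrl + IFN-γ library 2. The lowest p values belonged to Sdha (-0.18 ± 0.06 SE, edgeR adjusted p = 0.214), Uqcr11 (-0.85 ± 0.36, 0.301), Ndufs6 (-0.63 ± 0.32, 0.393), Ndufv3 (-0.46 ± 0.25, 0.427) and the core protein Uqcrc1 of complex III (-0.30 ± 0.17, 0.449). Without siR_Ctrl + IFN-γ library 2 those of the last 4 were -0.44, -0.21, -0.23 and -0.13, whereas Sdha ran from -0.195 to -0.14 as single libraries were left out. DESeq2 called 1 gene lower, again Sdha (-0.18, adjusted p = 0.0106), where it called 2.81% of all genes lower. The FPKM of Sdha was 92.3, 92.3 and 89.0 in siR_Nostrill + IFN-γ and 106, 90.2 and 101 in siR_Ctrl + IFN-γ, so the groups overlapped.

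The difference between the IFN-γ effects of siR_Nostrill and siR_Ctrl cells, tested as an interaction, passed for 0 of 80 subunit genes and for 0.0% of all tested genes, with 1 subunit at an unadjusted p under 0.05 and 0 calls by DESeq2. The median interaction was -0.49, with 2 genes above 0 and 78 below, against -0.25 for the other genes of the length range, of which 3518 of 4390 were below 0. Under 250 nt the medians were -0.59 for subunits and -0.72 for other genes. From 250 to 500 nt they were -0.58 and -0.55, and from 500 to 1000 nt -0.51 and -0.42. From 1000 to 2000 nt they were -0.41 and -0.21. Over 2000 nt, a class with no upper limit on length, they had opposite signs, at -0.26 and 0.15. The subunit median ranged from -0.71 to -0.25 as single libraries were left out. The lowest unadjusted p values were those of Atp5e (-1.18 ± 0.48 SE), the Rieske protein Uqcrfs1 (-0.45 ± 0.21), Cox7a1 (-1.21 ± 0.56), Atp5j, coupling factor 6 (-0.79 ± 0.37), and Ndufs6 (-0.95 ± 0.45), each with an edgeR adjusted p of 0.430. Without siR_Ctrl + IFN-γ library 2, Atp5e, Atp5j and Ndufs6 were at -0.76, -0.49 and -0.53. The 4 pairwise comparisons share libraries with each other and with the interaction, so their values stand side by side and are not independent of each other.

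**Figure D3:**
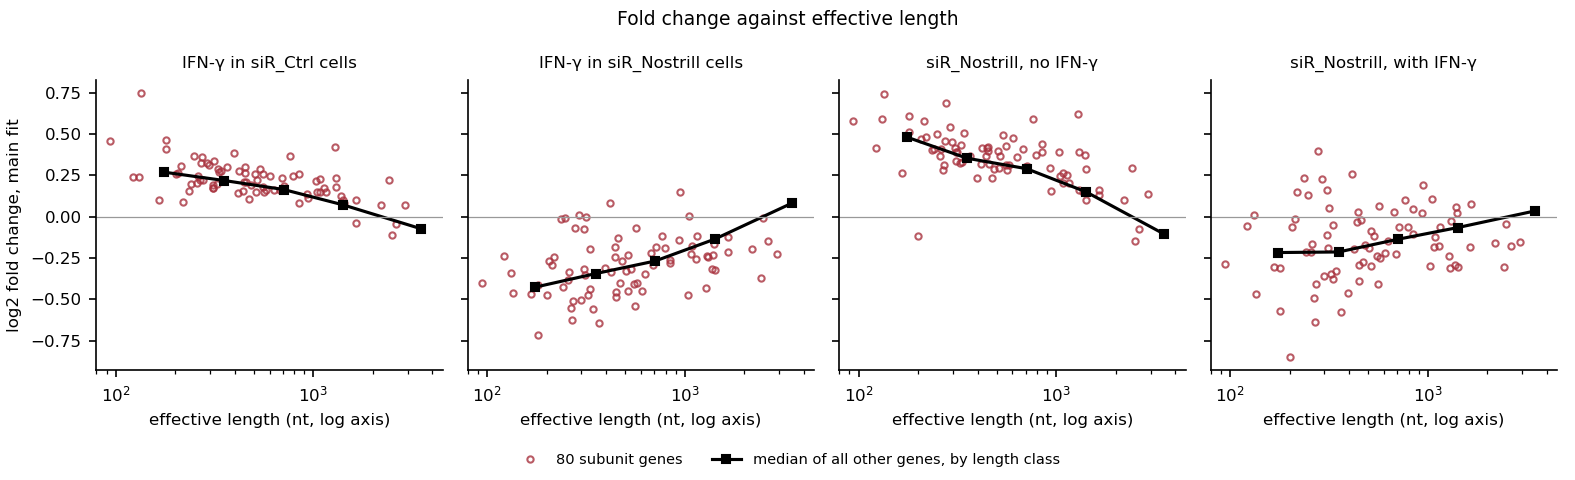
Log2 fold change of the edgeR fit with no trend removed against effective length (log axis) in the 4 pairwise comparisons, for the 80 subunit genes, with the medians of all other tested genes in 5 length classes (under 250, 250 to 500, 500 to 1000, 1000 to 2000 and over 2000 nt). The subunit and other medians are close in the classes under 500 nt, for example at 0.49 and 0.48 under 250 nt for siR_Nostrill without IFN-γ.

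By length class, the medians of subunits and other genes lay close together among the shortest genes. Under 250 nt (14 subunits and 46 other genes) the medians were 0.26 and 0.27 for IFN-γ in siR_Ctrl cells, -0.37 and -0.43 for IFN-γ in siR_Nostrill cells, 0.49 and 0.48 for siR_Nostrill without IFN-γ and -0.14 and -0.22 for siR_Nostrill with IFN-γ. From 250 to 500 nt (27 and 212 genes) they were 0.24 and 0.22, -0.34 and -0.34, 0.39 and 0.35, and -0.20 and -0.21. From 500 to 1000 nt (19 and 859 genes) they were 0.19 and 0.16, -0.28 and -0.27, 0.37 and 0.29, and -0.10 and -0.14. From 1000 to 2000 nt (15 and 2719 genes) they were 0.15 and 0.07, -0.23 and -0.14, 0.25 and 0.15, and -0.18 and -0.07. Over 2000 nt (5 and 7641 genes) the medians had opposite signs in each of these comparisons, at 0.07 and -0.07, -0.19 and 0.08, 0.10 and -0.10, and -0.16 and 0.04. This class has no upper limit and its 5 subunits lie between 2196 and 2918 nt, so it does not compare genes of like length.

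The length trend was next removed before the edgeR quasi-likelihood test, with the trend in place of TMM scaling. In this fit the medians of the 80 subunits were 0.03 for IFN-γ in siR_Ctrl cells and -0.02 for IFN-γ in siR_Nostrill cells. They were 0.03 for siR_Nostrill without IFN-γ, -0.01 for siR_Nostrill with IFN-γ and -0.06 for the interaction. Outside the interaction, more genes were called in this fit, among the subunits and among all genes. The numbers of subunits called were 1 (where 11.1% of all genes were called), 13 (18.9%), 3 (3.41%), 21 (12.9%) and 0 (0.0%), in that order. Of the other genes of the length range, 10.4%, 21.5%, 2.94%, 16.1% and 0.0% were called. For the interaction 16 of the 80 had an unadjusted p under 0.05, as did 2261 of the 11900 tested genes. With a replicate block added, 2 subunits were called for the interaction, where 2.12% of all genes were. The genes named from the trend-removed fit without that block lie outside the rule for named genes and were chosen after their values were seen.

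For IFN-γ in siR_Nostrill cells, 9 subunits were higher in this fit (where 11.2% of all genes were) and 4 lower (7.71%). Higher were Sdhc and Sdhd, the membrane anchors of complex II (0.38 and 0.21), Ndufa7 and Ndufa5 of complex I (0.37 and 0.35), Cox6b1 and Cox8a of complex IV (0.36 and 0.27), and Atp5g2, Atp5l and Atp5g1 of complex V (0.41, 0.31 and 0.22). With no trend removed, 5 of the 9 lay below 0: Cox6b1 (-0.013), Cox8a (-0.076), Atp5g1 (-0.067), Atp5l (-0.067) and Ndufa5 (-0.0043). Lower in the trend-removed fit were Atp5e (-0.33), Ndufa2 (-0.31), Ndufs6 (-0.27) and Ndufa8 (-0.25). When each library was left out in turn, a step added after seeing the data, 5 of the 13 were called in all 12 fits: Ndufa7, Sdhc, Cox6b1, Atp5g2 and Ndufa8. The number called was 5 without siR_Nostrill library 2, 7 without siR_Nostrill + IFN-γ library 1 and 8 without siR_Nostrill + IFN-γ library 2. For IFN-γ in siR_Ctrl cells the only call, Cox7b, a small subunit of complex IV (0.22 ± 0.06 SE, edgeR adjusted p = 0.0474), was kept in 2 of the 12 fits.

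The FPKM of Sdhc was 134, 127 and 118 in siR_Nostrill and 147, 138 and 143 in siR_Nostrill + IFN-γ, which do not overlap. The trend-removed IFN-γ difference was 0.38 ± 0.07 SE (edgeR adjusted p = 0.00241), and 0.15 (adjusted p = 0.497) with no trend removed. The value with no trend removed ran from 0.063 to 0.22 as single libraries were left out. Ndufa8 had 224, 244 and 189 FPKM in siR_Nostrill and 143.5, 151 and 166 in siR_Nostrill + IFN-γ, again with no overlap, and a trend-removed difference of -0.25 ± 0.05 SE (adjusted p = 0.00596). Sdhc overlaps the predicted gene Gm46172 in RefSeq (Sdhc at chr1:171129157-171150640, GRCm38.p6).

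For siR_Nostrill with IFN-γ, 9 subunits were higher (where 6.23% of all genes were) and 12 lower (6.71%). Complex I had 1 higher (Ndufa7) and 5 lower (Ndufs6, Ndufa2, Ndufv3, Ndufa8 and Ndufs5). Complex II had 2 higher (Sdhc and Sdhd) and 1 lower (Sdha), and complex III had 2 lower (Uqcr11 and Uqcrc1). Complex IV had 3 higher (Cox6b1, Cox8a and Cox7b) and 2 lower (Cox6c and Cox5b), and complex V had 3 higher (Atp5l, Atp5g2 and Atp5g1) and 2 lower (Atp5e and Atp5j). Of the 21, 6 were called in all 12 fits that left out a library: Uqcr11, Atp5l, Atp5g2, Cox6b1, Cox8a and Ndufa7. The number called was 7 without siR_Nostrill + IFN-γ library 2, 10 without siR_Nostrill + IFN-γ library 1, 10 without siR_Ctrl + IFN-γ library 2, 11 without siR_Ctrl + IFN-γ library 1 and 14 without siR_Nostrill + IFN-γ library 3.

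For siR_Nostrill without IFN-γ the calls included Cox7b (0.31), higher, and Uqcr11 (-0.56), lower, and of all 3 calls Uqcr11 alone was made in all 12 fits. The count was 1 without siR_Ctrl library 1, siR_Ctrl library 3 or siR_Nostrill library 2. Cox7b had 133, 220 and 193 FPKM in siR_Ctrl and 286, 289 and 226 in siR_Nostrill, which do not overlap. Among genes of the length range tested on their own, with no trend removed, 1 subunit was higher for IFN-γ in siR_Nostrill cells (Sdhc, 0.31, where 9.08% of genes were higher) and 2 for siR_Nostrill with IFN-γ (Sdhc, 0.27, and Atp5g2, 0.34, where 4.1% were).

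**Figure D4:**
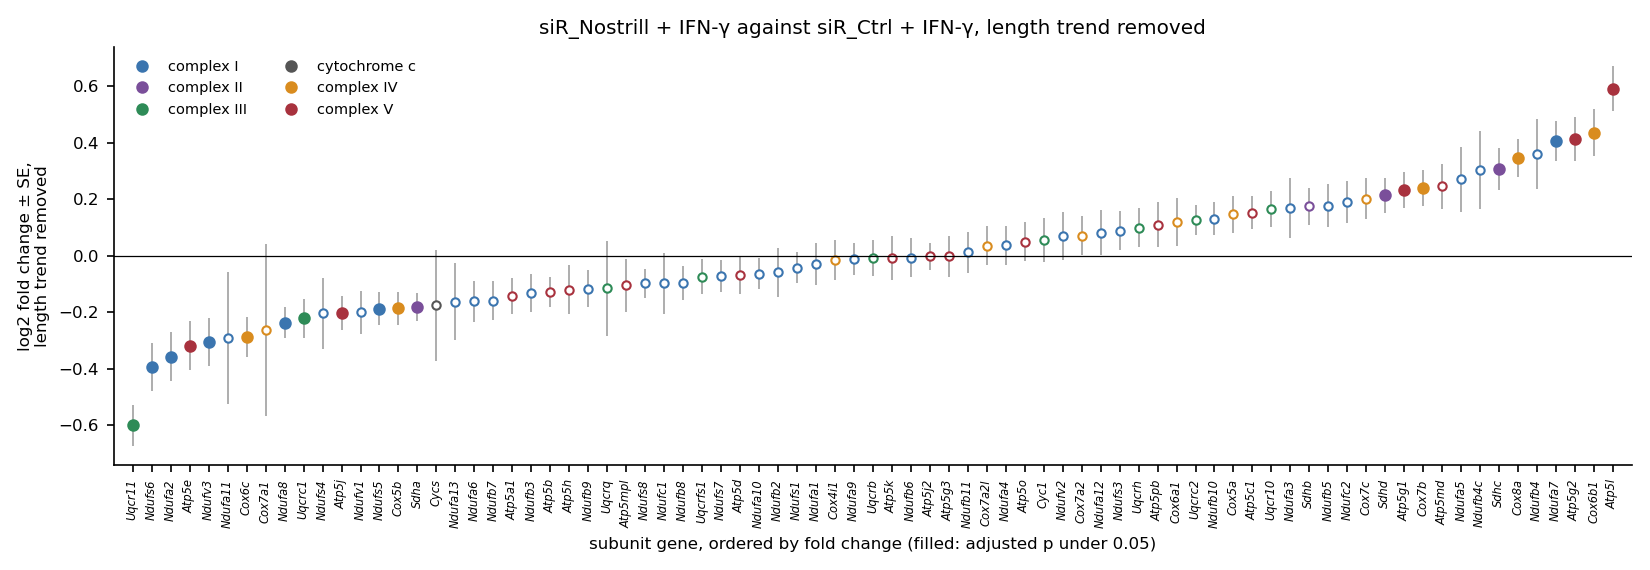
Log2 fold change of siR_Nostrill with IFN-γ (against siR_Ctrl with IFN-γ), length trend removed, for 79 of the 80 subunit genes, with bars of ± 1 SE from the fit. Filled points passed an adjusted p of 0.05. Called genes lie at both ends, from Uqcr11 at -0.60 to Atp5l at 0.59, and complexes I to V each hold called and uncalled members.

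Uqcr11, a small subunit of complex III (chr10:80402997-80406821 in GRCm38.p6, effective length 201 nt), had the lowest adjusted p of the subunits in both siRNA comparisons of the trend-removed fit. Its promoter with the ETS match is printed above. Its FPKM was 297, 581 and 509 in siR_Ctrl libraries 1 to 3, 503, 722 and 366 in siR_Ctrl + IFN-γ, 450, 477 and 305 in siR_Nostrill and 277, 289 and 342 in siR_Nostrill + IFN-γ. The FPKM values of the siRNA groups overlap without IFN-γ and do not with it. With the trend removed its log2 CPM was 6.57, 6.75 and 6.68, then 6.69, 6.89 and 6.50, then 6.23, 6.21 and 5.93, and then 5.98, 6.01 and 6.10, in the same order. All 6 siR_Nostrill libraries were then below all 6 siR_Ctrl libraries. In that fit the log2 fold change was -0.56 ± 0.07 SE without IFN-γ (edgeR adjusted p = 0.00118) and -0.60 ± 0.07 with it (edgeR adjusted p = 0.000494), where the fit with no trend removed gave -0.12 (adjusted p = 0.854) and -0.85 (adjusted p = 0.301). The trend-removed interaction was -0.04 ± 0.10 SE (adjusted p = 0.860).

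The difference in Uqcr11 also shows without any trend when it is divided by Uqcr10, the subunit of complex III nearest to it in length (206 nt). The ratio of their FPKM was 0.90, 0.99 and 0.91 in siR_Ctrl and 0.87, 1.004 and 0.88 in siR_Ctrl + IFN-γ. It was 0.64, 0.66 and 0.56 in siR_Nostrill and 0.49, 0.55 and 0.58 in siR_Nostrill + IFN-γ. The siRNA groups do not overlap, with or without IFN-γ. Uqcr10 itself had a trend-removed difference of 0.16 with siR_Nostrill and IFN-γ (edgeR adjusted p = 0.108), which does not pass but lowers this ratio. This ratio was chosen after the values were seen and has no test of its own. Uqcr10 overlaps the predicted gene Gm51883 in RefSeq.

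**Figure D5:**
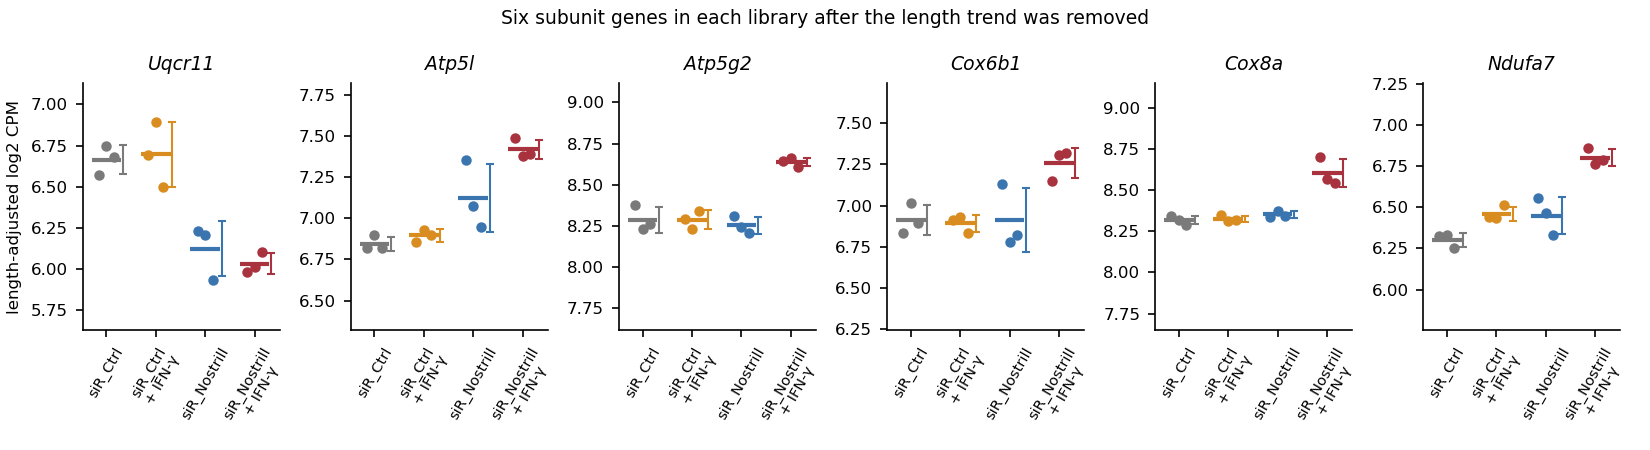
Length-adjusted log2 CPM of the 6 subunit genes called in all 12 leave-one-out fits for siR_Nostrill with IFN-γ. Points are libraries, with group means and ± 1 SD over 3 libraries. The values keep each library's TMM factor. Uqcr11 is lower in both siR_Nostrill groups, at 5.93 to 6.23 against 6.50 to 6.89 in the siR_Ctrl groups, while the other genes have their highest group mean in siR_Nostrill + IFN-γ.

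Atp5l was higher with siR_Nostrill and IFN-γ in the trend-removed fit (0.59 ± 0.08 SE, edgeR adjusted p = 0.000987), where the fit with no trend removed gave 0.40 (adjusted p = 0.561). Its FPKM was 578, 551 and 612 in siR_Nostrill + IFN-γ and 407, 523 and 356 in siR_Ctrl + IFN-γ, which do not overlap. In siR_Nostrill it was 710, 616 and 450 and in siR_Ctrl 269, 466 and 411, which overlap, and without IFN-γ the trend-removed difference was 0.26 (adjusted p = 0.0917). Divided by Atp5j2, the nearest in length within complex V, Atp5l was at 0.81, 0.74 and 0.75 in siR_Nostrill + IFN-γ and between 0.47 and 0.68 in the 9 other libraries. Atp5l (chr9:44913248-44920742) overlaps the predicted gene Gm30934 in RefSeq, and no source used here says whether the counting kept strands apart.

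Atp5g2 (chr15:102662868-102671047), the c subunit gene whose share is given above, had a trend-removed difference of 0.41 ± 0.08 SE with siR_Nostrill and IFN-γ (edgeR adjusted p = 0.00536), and 0.26 (adjusted p = 0.576) with no trend removed. Its FPKM was 869, 910.2 and 949 in siR_Nostrill + IFN-γ and 730.3, 828 and 655 in siR_Ctrl + IFN-γ, with no overlap. Its ratio to Atp5j, the nearest in length, was 2.45, 2.34 and 2.33 in siR_Nostrill + IFN-γ and 1.32 to 1.90 in the 9 other libraries, but Atp5j was itself called lower in that fit (-0.20, edgeR adjusted p = 0.0408), which also raises the ratio. Without IFN-γ the trend-removed difference was -0.06 (adjusted p = 0.688). The interaction was 0.48 ± 0.11 SE with an edgeR adjusted p of 0.134, which does not pass.

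Ndufa7 (chr17:33824572-33838316), an accessory subunit of complex I, was at 357, 342 and 382 FPKM in siR_Nostrill + IFN-γ and at 289.8, 352 and 259 FPKM in siR_Ctrl + IFN-γ, which overlap. With the trend removed the difference was 0.41 ± 0.07 SE (edgeR adjusted p = 0.00364), against 0.23 (adjusted p = 0.730) with no trend removed. Its ratio to Ndufb7, of nearly the same length, was 1.17, 1.03 and 0.92 in siR_Nostrill + IFN-γ and 0.62 to 0.80 in the 9 other libraries, which do not overlap. Ndufb7 itself had a trend-removed difference of -0.16 (edgeR adjusted p = 0.143), which does not pass but raises the ratio.

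Cox6b1 (chr7:30616971-30626114), on the side of complex IV that meets cytochrome c, had 536, 611 and 681 FPKM in siR_Nostrill + IFN-γ and 499.6, 624 and 397 in siR_Ctrl + IFN-γ. These overlap, and the trend-removed difference was 0.44 ± 0.08 SE (edgeR adjusted p = 0.00556), against 0.24 (adjusted p = 0.780) with no trend removed. Its ratio to Cox7c was 0.57, 0.74 and 0.78 in siR_Nostrill + IFN-γ, and the first of these lies within the 0.52 to 0.69 of the other 9, so for Cox6b1 the groups overlap on this measure. Cox8a (chr19:7215158-7217616) had 1209, 1130.3 and 1219 FPKM against 1024, 1212 and 856, which overlap, with a trend-removed difference of 0.35 ± 0.07 SE (edgeR adjusted p = 0.00657), against 0.16 (adjusted p = 0.795) with no trend removed. Its ratio to Cox6a1 was 1.56, 1.56 and 1.502 against 1.40, 1.33 and 1.24 in siR_Ctrl + IFN-γ, while siR_Nostrill reached 1.502 and siR_Ctrl 1.49. With no trend removed, the values of these genes for siR_Nostrill with IFN-γ rested on single libraries. Without siR_Ctrl + IFN-γ library 3 and without siR_Ctrl + IFN-γ library 2 they were 0.24 and 0.66 for Atp5l, 0.145 and 0.42 for Atp5g2, 0.093 and 0.44 for Ndufa7, 0.049 and 0.51 for Cox6b1 and 0.0080 and 0.38 for Cox8a. Those without siR_Nostrill + IFN-γ library 3 were also smaller than with all libraries.

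Among the proteins that assemble the complexes, 47 of 47 listed genes were tested and 0 were called in any of the 5 comparisons in the fit on all genes with no trend removed. Their medians were 0.08 and -0.20 for IFN-γ in siR_Ctrl and siR_Nostrill cells, 0.17 and -0.05 for siR_Nostrill without and with IFN-γ and -0.29 for the interaction. At an unadjusted p under 0.05 there were 1, 6, 5, 4 and 3. The lowest p values were those of Sco1, a copper chaperone of complex IV (-0.34 ± 0.09 SE, edgeR adjusted p = 0.0681), and Sdhaf2 (0.25) for IFN-γ in siR_Ctrl cells, Coa6 (-0.50) and Uqcc3 (-0.68) for IFN-γ in siR_Nostrill cells, Lyrm7 (1.01) and Cox16 (0.59) for siR_Nostrill without IFN-γ, and Foxred1 (0.28) and Cox11 (-0.29) with it. With the trend removed, 12.9% of all genes were called with siR_Nostrill and IFN-γ, and 6.23% of all genes were called higher. Of the 47 assembly genes 4 (8.51%) were called, each of them higher. They were Sco2, the other copper chaperone (0.42), Cox18, which helps insert a complex IV subunit (0.31), the complex I factor Foxred1 (0.30) and Coa5 (0.24). For IFN-γ in siR_Nostrill cells 3 of the 47 (6.38%) were called, where 18.9% of all genes were: Cox18 (0.46) and Foxred1 (0.31) were higher and Uqcc3, a complex III factor, lower (-0.41). For IFN-γ in siR_Ctrl cells 1 was called, Sco2 (-0.45), where 11.1% of all genes were. Among length-matched genes, which hold 35 of the 47, 1 was called for IFN-γ in siR_Ctrl cells (Sco2, lower) and 4 for IFN-γ in siR_Nostrill cells (2 higher and 2 lower), where 7.63% and 14.8% of the other genes of the length range were. In that fit 0 of the 35 were called for siR_Nostrill with IFN-γ, where 9.16% of those other genes were.

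Of the 12 regulators of mitochondrial biogenesis, Esrra, the nuclear receptor ERRα, was called with no trend removed, lower with IFN-γ in siR_Nostrill cells (-0.40 ± 0.10 SE, edgeR adjusted p = 0.0421), where 6.78% of all genes were called. No other regulator was called in any comparison of that fit, in which 0, 4, 2, 4 and 3 of the 12 had an unadjusted p under 0.05. Fitted on length-matched genes alone, which hold 4 of the 12, Esrra did not pass (-0.24, edgeR adjusted p = 0.177). With the trend removed Esrra was again lower there (-0.33), as was Polrmt, the mitochondrial RNA polymerase (-0.29), while Gabpa (0.27) and the coactivator Pprc1 (0.30) were higher, which makes 4 of 12 called where 18.9% of all genes were. For siR_Nostrill with IFN-γ, Nrf1 (-0.26) and Polrmt (-0.31) were lower and Pprc1 higher (0.27) in that fit, 3 of 12 where 12.9% of all genes were called. For siR_Nostrill without IFN-γ 1 of 12, Gabpa, was lower (-0.32), where 3.41% of all genes were called. With 12 genes, nothing is read from these shares.

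Other sets of short genes also had no calls in the fit on all genes with no trend removed. The 78 mitochondrial ribosomal protein genes had 0 calls in each of the 5 comparisons, with medians of 0.16, -0.28, 0.30, -0.12 and -0.42. The 83 cytosolic ribosomal protein genes had 0 calls, with medians of 0.21, -0.40, 0.32, -0.29 and -0.60. The 35 genes listed as constitutive proteasome had 0 calls, with medians of 0.11, -0.26, 0.23, -0.14 and -0.37. This list includes Psmc3ip, which encodes a PSMC3-interacting protein and not a proteasome subunit. By edgeR the unadjusted p was under 0.05 for 1, 5, 4, 3 and 2 of the mitochondrial ribosomal and 0, 4, 0, 2 and 5 of the cytosolic ribosomal genes. It was under 0.05 for 0, 6, 2, 4 and 6 genes of the proteasome list. With the trend removed, the genes called for siR_Nostrill with IFN-γ were 8 higher and 4 lower in the first set, 2 and 14 in the second and 2 and 4 in the last, beside 9 and 12 subunits. Of all genes 6.23% were called higher and 6.71% lower there, and whether the sets differ was not tested. For IFN-γ in siR_Nostrill cells that fit called 2 higher and 5 lower, 2 and 12, and 2 and 6 in these sets, beside 9 and 4 subunits, where 11.2% of all genes were higher and 7.71% lower. The 6 lower genes of the proteasome list include Psmc3ip (-0.45, edgeR adjusted p = 0.00536). Among length-matched genes the calls for IFN-γ in siR_Nostrill cells were 1 of 71, 2 of 74 and 4 of 32 (14.8% of the other genes of the length range), and for siR_Nostrill with IFN-γ 2, 2 and 3 (9.16%).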

How the data were processed

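The authors sequenced oligo(dT)-selected RNA on a DNBSEQ platform. HISAT2, Bowtie2 and SOAPnuke and the build GRCm38.p6 are named in the submitters' processing notes, and a counting tool was not given in the sources used here. Deposited tables give, per the file headers, an estimated count, FPKM and TPM for each gene and library. Columns were taken by name, since their order differs in the siR_Nostrill tables. Estimated counts were rounded and tested with edgeR 4.0.16 (R 4.3.3; TMM, filterByExpr, quasi-likelihood) over all 12 libraries in 1 fit, with a coefficient for each group and Benjamini-Hochberg adjustment over 11900 genes at 0.05. DESeq2 1.42.0, the study's own test, and limma 3.58.1 on log2 of the deposited FPKM plus 1 were alternatives. Effective length was worked back from count and FPKM in libraries with at least 20 counts. The length trend was a lowess curve (span 0.3) of log2 CPM (prior count 2, no TMM) minus the gene mean on log2 length in each library. It entered edgeR as an offset with the library sizes, without TMM factors. For values by library it was subtracted from log2 CPM with TMM, so these keep each library's TMM factor. Tables were made with Python 3.11.15 and pandas 2.3.3. The fits were run on simulated counts made with the same length trend and the same spread setting for all genes. That run therefore does not gauge the calls of the trend-removed fit.

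The rule for members uses symbols alone, but members and lists were chosen with earlier results of these data known. Genes named were subunits past the threshold, the 5 of lowest p in each comparison, the 2 most abundant of each complex, isoforms, the 3 longest and 3 shortest, and those that failed the filter, and 1 subunit gene is not reported by name or drawn by name here. In other lists they were the genes past the threshold or else the 2 of lowest p. P-values measure the spread between these libraries.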

Additional observations from a re-analysis of the deposited data

How the results depend on the processing

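The 80 subunits had 0 calls in each of the 5 comparisons under DESeq2 size factors in edgeR, under both filters on low counts, under limma on log2(FPKM + 1) or log2(FPKM + 0.1), and with each library left out of the edgeR fit in turn. DESeq2 called 1 for IFN-γ in siR_Nostrill cells and 1 for siR_Nostrill with IFN-γ. The 6 libraries compared alone gave 10 for IFN-γ in siR_Nostrill cells, a setting with no value for the interaction, which needs all 12, and length-matched genes gave 1 there and 2 for siR_Nostrill with IFN-γ. The length trend removed gave 1, 13, 3 and 21 for IFN-γ in siR_Ctrl and siR_Nostrill cells and siR_Nostrill without and with IFN-γ, with medians of 0.030 for siR_Nostrill without IFN-γ and -0.055 for the interaction. With single libraries left out of that fit these counts ranged from 0 to 1, 5 to 14, 1 to 3 and 7 to 22. The cause of these changes was not tested.

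The groups share replicate numbers. Of 18 correlations between same-numbered libraries of different groups (-0.495 to 0.725), 8 were over 0.1 and 7 were the best for their number. They were taken with no length trend removed, so they also hold the shifts by length. They cannot show whether same-numbered libraries share more than a number. The replicate block alone gave 0 calls in all 5 comparisons. The replicate block with the length trend removed gave 1, 15, 3 and 24 calls and 2 for the interaction, where 12.02%, 22.4%, 4.67%, 15.9% and 2.12% of all tested genes were called, with medians of 0.031 for siR_Nostrill without IFN-γ and -0.055 for the interaction.

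Some subunits turned direction for IFN-γ in siR_Nostrill cells. With the trend removed Atp5g1, Atp5l, Cox6b1, Cox8a and Ndufa5 were at 0.22, 0.31, 0.36, 0.27 and 0.35, with the block as well at 0.22, 0.31, 0.37, 0.27 and 0.34, and among length-matched genes at 0.097, 0.11, 0.15, 0.092 and 0.16. Limma put Cox6b1 and Ndufa5 at 0.031 and 0.030 with a pseudocount of 1, filtered or with all genes, and at 0.0315 and 0.030 with 0.1. Sdhd was at -0.0022 with DESeq2 size factors and -0.0019 by DESeq2. With single libraries left out of the edgeR fit, values ran from -0.28 to 0.15 for Atp5l, -0.20 to 0.21 for Cox6b1, -0.21 to 0.17 for Ndufa5, -0.056 to 0.18 for Atp5g2, -0.18 to 0.15 for Ndufa7 and -0.059 to 0.065 for Sdhd. Those of Uqcr11 ran from -0.40 to 0.17 for siR_Nostrill without IFN-γ, and those of Atp5g1 and Cox7b from -0.10 to 0.30 and -0.015 to 0.33 for siR_Nostrill with IFN-γ. The median of the subunits ran from -0.43 to -0.22 for IFN-γ in siR_Nostrill cells and from -0.31 to 0.09 for siR_Nostrill with IFN-γ.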
